A study of Mus musculus with 2 samples.

Results

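Regulatory T cells of mite-treated mouse skin were picked out of a droplet single-cell RNA sequencing series by a rule on raw counts. A droplet barcode was a member if it held 500 or more unique molecular identifiers (UMIs, each standing for 1 captured RNA molecule), 250 or more genes and under 10% mitochondrial UMIs. It also needed 1 or more UMIs of Foxp3, 1 or more of Cd3d, Cd3e and Cd3g together, and 1 or more of Ctla4, Ikzf2 and Il2ra together. It had to hold no UMI of Cd8a or Cd8b1, none of Cd163l1, Blk or 5830411N06Rik (genes of dermal gamma-delta T cells), and at most 5 of Lyz2, a lysozyme gene of macrophages. The rule thus chose the cells on measured values, and the genes it used are given below as description only. It found 480 cells among 26553 that passed the filters on UMIs, genes and mitochondrial share, 191 of 11934 in the wild-type (WT) library and 289 of 14619 in the IL31RAKO library.

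The WT library came from C57Bl/6 mice and the IL31RAKO library from C57Bl/6 mice lacking the alpha chain of the IL-31 receptor, and the labels do not give the mice's age or sex or how the receptor gene was disrupted. Both groups had Biostir ointment, which contains antigen of the house dust mite (HDM) D. farinae, applied to the shaved back 2 times weekly over 3 weeks. A 2% SDS solution went on 2 hours before each application, and no untreated skin stands beside the treated groups. Skin of 4 mice per group was pooled before live CD45+ cells, that is leukocytes, were sorted and 30000 cells loaded, which leaves 1 library per group and no spread between mice. No test of genotype was therefore possible: each bracketed range below is a 95% interval for counting error alone, and it says nothing about how far 2 pools of the same genotype would differ.

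Foxp3 is the transcription factor that defines regulatory T cells, which restrain other immune cells. They do so with the receptor CTLA-4, which takes co-stimulatory ligands away from antigen-presenting cells, with cytokines such as IL-10 and TGF-beta, and by binding IL-2 through its high-affinity receptor chain CD25, the product of Il2ra. Helios, the product of Ikzf2, is common in regulatory T cells that arise in the thymus. In skin these cells are known for limiting inflammation and for tissue repair, and many carry the OX40 receptor (Tnfrsf4), the IL-33 receptor ST2 (Il1rl1), KLRG1 and the growth factor amphiregulin (Areg). The comparison of the genotypes bears on the question of the series, what IL-31 signalling contributes to mite-induced dermatitis.

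In total 57000499 UMIs were counted in WT and 71333292 in IL31RAKO, with a median of 2918.5 and 3181 UMIs per cell. The regulatory T cells were slightly shallower, at a median of 2293 UMIs and 1082 genes in WT and 2478 UMIs and 1175 genes in IL31RAKO, over ranges of 573 to 26965 and 504 to 8928 UMIs. A single WT cell of 26965 UMIs held 4.77% of all UMIs of the WT regulatory T cells. The libraries shared 247 cell barcodes, but no barcode was a member in both. Doublets were not removed from the values below. Of the cells with the highest doublet scores, 11 WT and 11 IL31RAKO members (5.76% and 3.81%) would have been lost. RNA outside cells was read from barcodes of 10 to 50 UMIs (10271 and 8902 of them) and is called free RNA. Levels are given as CPM, the UMIs of a gene summed over the cells of a class and divided by all UMIs of that class, times 1000000.

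The label was checked against markers. Tnfrsf4, which the rule did not use, had 923 UMIs in 145 of the 191 WT cells and 1660 in 248 of the 289 IL31RAKO cells, or 1632 and 2084 CPM, against 161 and 247 CPM in free RNA. After each cell was thinned to 1000 UMIs, 65.9% [58.4, 72.9] of WT and 72.3% [66.5, 77.7] of IL31RAKO cells kept a Tnfrsf4 UMI (75.9% and 85.8% before thinning). The thinned share was 1.66% and 1.58% in C1q macrophages (637 and 1621 cells, defined by C1q and Lyz2 UMIs and no Cd3 UMI, with a median of 2607 and 3498 UMIs), which should lack the gene. GARP (Lrrc32), which presents latent TGF-beta on regulatory T cells, was at 35.4 and 38.9 CPM with no UMI in free RNA, and the Foxp3 partner Eos (Ikzf4) at 46.0 and 57.7 CPM against 0 and 5.26. Neither had enough UMIs to be compared with other CD4 T cells, and a level above free RNA does not separate regulatory from other T cells. Of the 13 listed regulatory T genes outside the rule, Gpr83 and Nrp1 had too few UMIs to be measured.

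Foxp3 itself (ENSMUSG00000039521, GRCm38 chromosome X, 7573644 to 7595245, plus strand) gave few UMIs per cell. In WT, 140 cells had 1 UMI, 41 had 2, 7 had 3 and 3 had 4. In IL31RAKO, 189 cells had 1, 62 had 2, 24 had 3, 10 had 4, 3 had 5 and 1 had 6, so that 26.7% of WT and 34.6% of IL31RAKO members had 2 or more. Most members thus lay just inside the threshold, and just outside it, 1027 WT and 996 IL31RAKO cells met every criterion except Foxp3. Tnfrsf4 was at 321 and 594 CPM in those cells, 1600 and 1937 CPM at 1 Foxp3 UMI, and 1700 and 2297 CPM at 2 or more. Cells with 1 Foxp3 UMI were thus nearer to cells with more than to cells with none. Free RNA held Foxp3 at 17.0 and 10.5 CPM, and 0.942% of WT and 1.54% of IL31RAKO C1q macrophages had a Foxp3 UMI (0.333% and 0.506% after thinning).

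The other rule genes give the makeup of the class. Ikzf2 had a UMI in 86.9% of WT and 88.2% of IL31RAKO members, Ctla4 in 71.7% and 81.3%, and Il2ra in 46.1% and 45%. All 3 were seen in 31.4% and 33.2% of members, and only 1 of them in 26.7% and 18.7%. Cd4, which the rule did not ask for, had a UMI in 45 WT cells (23.6%) and 95 IL31RAKO cells (32.9%).

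**Figure D1:**
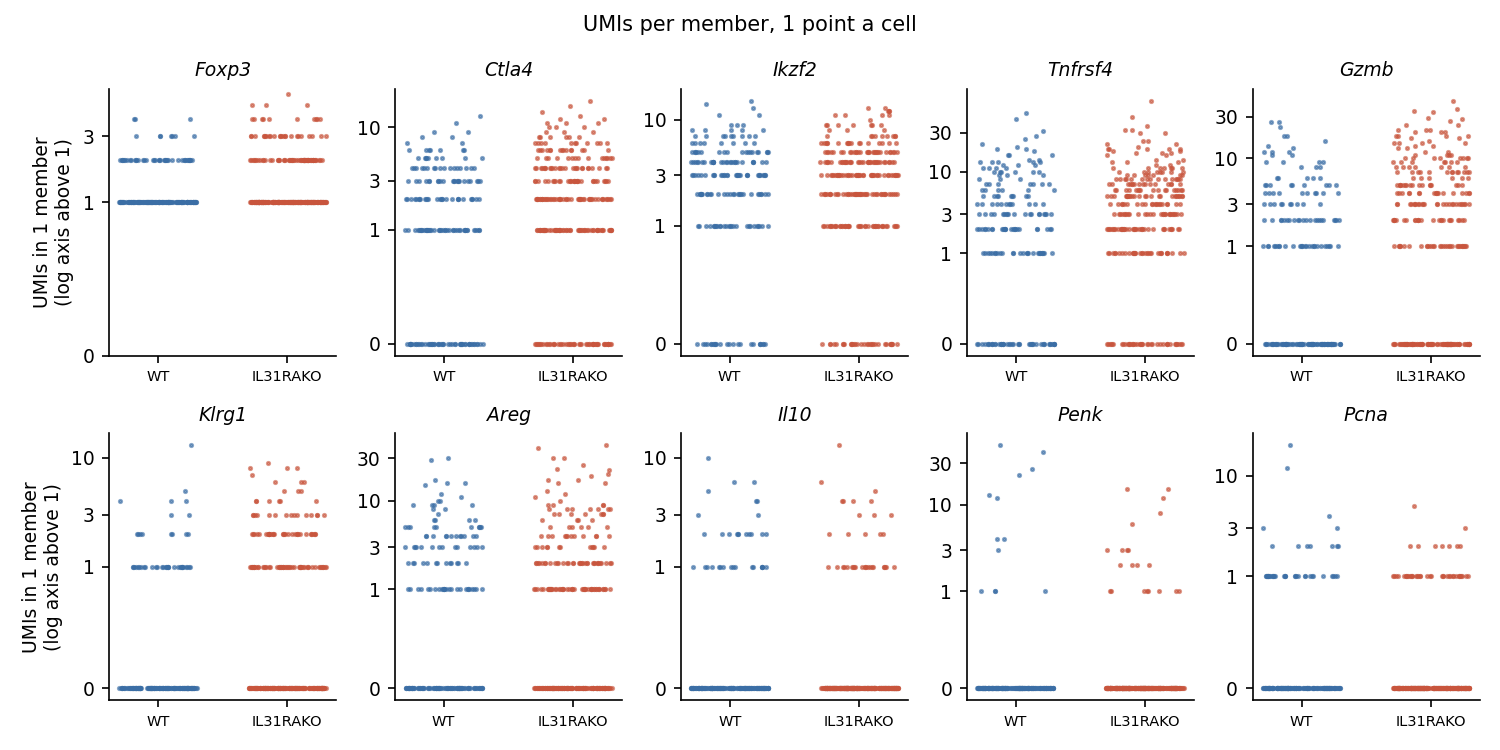
UMIs of 10 genes in each regulatory T cell (1 point a cell, spread sideways at random; vertical axis linear up to 1 UMI and logarithmic above), 191 WT and 289 IL31RAKO cells. Foxp3 stays at 6 UMIs or fewer, Tnfrsf4 and Gzmb reach 73 and 45, and Penk comes from 13 WT and 21 IL31RAKO cells.

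Many Foxp3 cells were not members. Of 426 WT and 774 IL31RAKO cells with a Foxp3 UMI, 235 and 485 failed 1 or more criteria. The Cd8 criterion alone removed 69 and 164, the gamma-delta criterion alone 23 and 9, Lyz2 alone 17 and 47, the regulatory genes alone 15 and 27, and Cd3 alone 5 and 10. Cells lost to the Cd8 criterion alone had Tnfrsf4 at 1075 and 1128 CPM and Ikzf2 at 565 and 556 CPM, and 33 of the 69 and 66 of the 164 held a single Cd8 UMI. Their median depth, 4152 and 3239.5 UMIs, was above that of members. Whether they are CD8 T cells, doublets or regulatory T cells with stray Cd8 RNA was not tested. At the Lyz2 limit, 5 WT and 14 IL31RAKO members had exactly 5 UMIs, and 4 and 8 cells were left out with 6.

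Regulatory T cells made up a larger share of the IL31RAKO library. They were 1.60% [1.38, 1.84] of all WT cells and 1.98% [1.76, 2.22] of all IL31RAKO cells, a ratio of 1.24 [1.03, 1.48]. Among cells with a Cd3 UMI (9479 and 9899), they were 2.01% [1.74, 2.32] and 2.92% [2.60, 3.27], a ratio of 1.45 [1.21, 1.74]. Conventional CD4 T cells (255 in WT and 221 in IL31RAKO) had to hold a Cd4 UMI and no Foxp3 UMI. The other criteria were the same, except that no UMI of Ctla4, Ikzf2 or Il2ra was asked for. Most members held only 1 Foxp3 UMI, so the conventional class can include regulatory T cells whose Foxp3 went undetected. Regulatory T cells were 42.8% [38.2, 47.6] and 56.7% [52.2, 61.0] of both classes together, a ratio of 1.32 [1.16, 1.51]. Members needed no Cd4 UMI, and 23.6% and 32.9% of them held one, so these percentages depend on how often Cd4 was detected. The part of Cd4 detection in this ratio was not tested. Each ratio sets 1 pool of mice beside another.

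The share depended on how Lyz2 was handled. In WT, 125 of the 191 members (65.4%) held a Lyz2 UMI, and in IL31RAKO 224 of 289 (77.5%). With members held to 0 Lyz2 UMIs over unchanged denominators, 66 and 65 were left, and the ratios turned to 0.804 [0.571, 1.13] of all cells and 0.943 [0.67, 1.33] of Cd3 cells. Cells without Lyz2 were themselves scarcer in IL31RAKO, at 10.9% of Cd3 cells against 22.2% in WT. With the denominators held to 0 Lyz2 UMIs as well, the ratios were 1.63 [1.16, 2.28] and 1.92 [1.38, 2.69]. Asking for 2 or more Foxp3 UMIs gave 1.60 [1.14, 2.24] and 1.88 [1.34, 2.63]. C1q macrophages, a main source of Lyz2, were 637 in WT and 1621 in IL31RAKO, and Lyz2 in free RNA was at 6618 and 5463 CPM. Its part in the share was not tested.

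**Figure D2:**
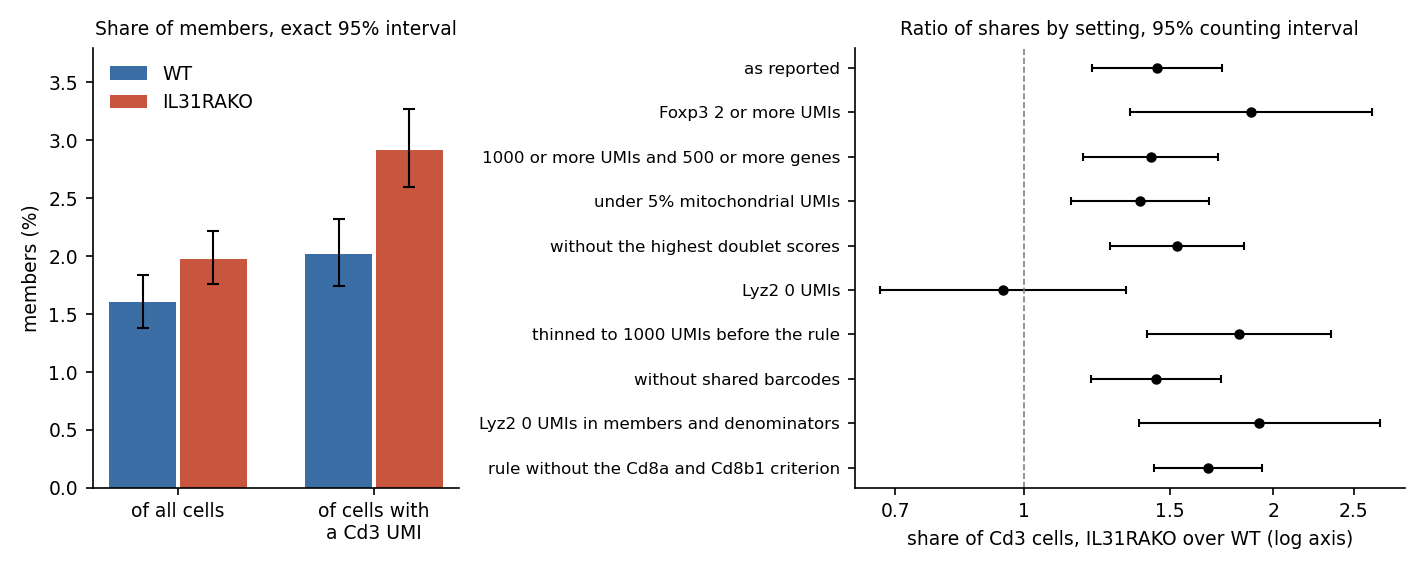
Left, regulatory T cells as a percentage of all cells and of cells with a Cd3 UMI in each library (bars, with exact binomial 95% intervals). Right, the ratio of the Cd3 shares, IL31RAKO over WT, under each setting (points, with 95% counting intervals, log axis). The point for Lyz2 at 0 over unchanged denominators, 0.943, is the one left of 1.

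Regulatory T cells were then set against conventional CD4 T cells within each library, to see what they carried beyond the rule's genes. The conventional cells had a median of 2621 and 2484 UMIs. Of 3131 genes with 50 or more UMIs over both classes in each library, 103 (3.29%) were at least 1.5 times as high in regulatory T cells, with an interval above 1, in both libraries. Another 65 (2.08%) were lower by the same measure in both.

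Of 10 measured genes of the TNF family and co-stimulation list, 5 were higher past the fold in both libraries and none was lower by it. Tnfrsf9, which encodes the activation receptor 4-1BB, was at 606 CPM against 140 in conventional cells in WT, and at 1022 against 365 in IL31RAKO (4.33 [3.47, 5.43] and 2.80 [2.41, 3.26]). Tnfrsf4 was 3.33 [2.95, 3.77] and 3.41 [3.05, 3.83] times as high, and Tnfrsf18, the gene of the receptor GITR, 2.86 [2.48, 3.31] and 2.26 [2.01, 2.54]. Tnfrsf1b, for the TNF receptor TNFR2, was at 2.76 and 1.89, and Cd27 at 1.87 and 2.37. Cd28, the co-stimulatory receptor of T cells, was at 0.782 and 0.788. The median log2 ratio of the list was 0.74 in WT and 0.85 in IL31RAKO, against 0.06 and 0.04 over all genes.

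Of 11 measured genes of the tissue effector list, 4 were past the fold upward and 1 downward in both libraries. Klrg1, for an inhibitory lectin-like receptor of antigen-experienced cells, was at 148 CPM against 26.4 in WT and 330 against 67.8 in IL31RAKO (5.61 [3.42, 9.66] and 4.87 [3.50, 6.91]). Il1rl1 was at 106 against 18.5 CPM and 174 against 56.5 (5.73 [3.16, 11.1] and 3.09 [2.12, 4.61]). Areg was at 780 against 414 CPM and 957 against 394 (1.88 [1.63, 2.18] and 2.43 [2.10, 2.82]), with 319 and 437 CPM in free RNA. Together with Batf, a transcription factor of tissue regulatory T cells (1.56 and 1.55), these were the 4 higher genes. Bhlhe40, a transcription factor of cytokine-producing T cells, was the lower one, at 0.440 and 0.487.

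Among suppressive molecules, Gzmb, encoding the cytotoxic protease granzyme B, was at 863 against 299 CPM in WT and 1698 against 533 in IL31RAKO (2.89 [2.46, 3.39] and 3.19 [2.82, 3.61]). Lag3, for an inhibitory receptor, was at 2.29 and 1.65, and Prdm1, for the transcription factor Blimp-1, at 2.82 and 2.17. These 3 of 10 measured genes passed the fold in both libraries. Il10 was at 1.46 [1.05, 2.04] and 1.66 [1.11, 2.5], and Tgfb1 at 1.08 and 1.07. Further genes named by the rule for the largest differences were Pglyrp1, for a secreted peptidoglycan-binding protein (3.39 and 3.15), the tetraspanin gene Cd81 (3.2 and 2.64), Wls, which Wnt secretion needs (4.43 and 3.05), Fam46a (3.64 and 2.52), Arl5a (2.98 and 2.74) and the trefoil factor gene Tff1 (3.01 and 2.88). Tff1 stood at 350 and 382 CPM in regulatory T cells and 323 and 289 in free RNA.

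The lower genes named by the rule began with Cd40lg. Cd40lg, the ligand by which helper T cells activate B cells, had 8 UMIs in WT and 21 in IL31RAKO regulatory T cells, or 14.1 and 26.4 CPM against 251 and 140 CPM in conventional cells (0.0563 [0.0240, 0.113] and 0.188 [0.111, 0.305]). Tnfsf8, the CD30 ligand gene, was at 0.0598 and 0.303, the type 1 chemokine receptor gene Cxcr3 at 0.183 and 0.114, and Tcf7, a transcription factor of less differentiated T cells, at 0.219 and 0.269. Nkg7, a gene of cytotoxic granules, was at 0.361 and 0.252, Klrk1, for the receptor NKG2D, at 0.264 and 0.348, and Cd7 at 0.479 and 0.507. Cxcr6, a chemokine receptor of resident T cells, was at 0.491 and 0.474, Ms4a4b at 0.415 and 0.485, Slfn2 at 0.450 and 0.485, and Sema4a at 0.263 and 0.275. Cd4 was also lower (0.236 and 0.315), but the conventional cells were chosen by a Cd4 UMI, so nothing is read from it.

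Of 6 measured effector cytokines, 5 were lower past the fold in both libraries. Ifng had 3 and 10 UMIs in regulatory T cells (0.0418 [0.00847, 0.126] and 0.0551 [0.0259, 0.104] of the conventional level), Il13 8 and 12 UMIs (0.170 and 0.148), Il22 0.281 and 0.284, Il2 0.281 and 0.493, and Il17f 0.497 and 0.552. Interferon gamma and IL-13 mark type 1 and type 2 helper cells, and IL-22 and IL-17F type 17 cells. Il17a was at 0.523 and 0.708, and its level in regulatory T cells, 191 and 115 CPM, lay under the 624 and 537 CPM of free RNA. After thinning, 10.2% and 11.4% of regulatory T cells had an Il17a UMI, near the 8.49% and 5.82% of C1q macrophages.

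**Figure D3:**
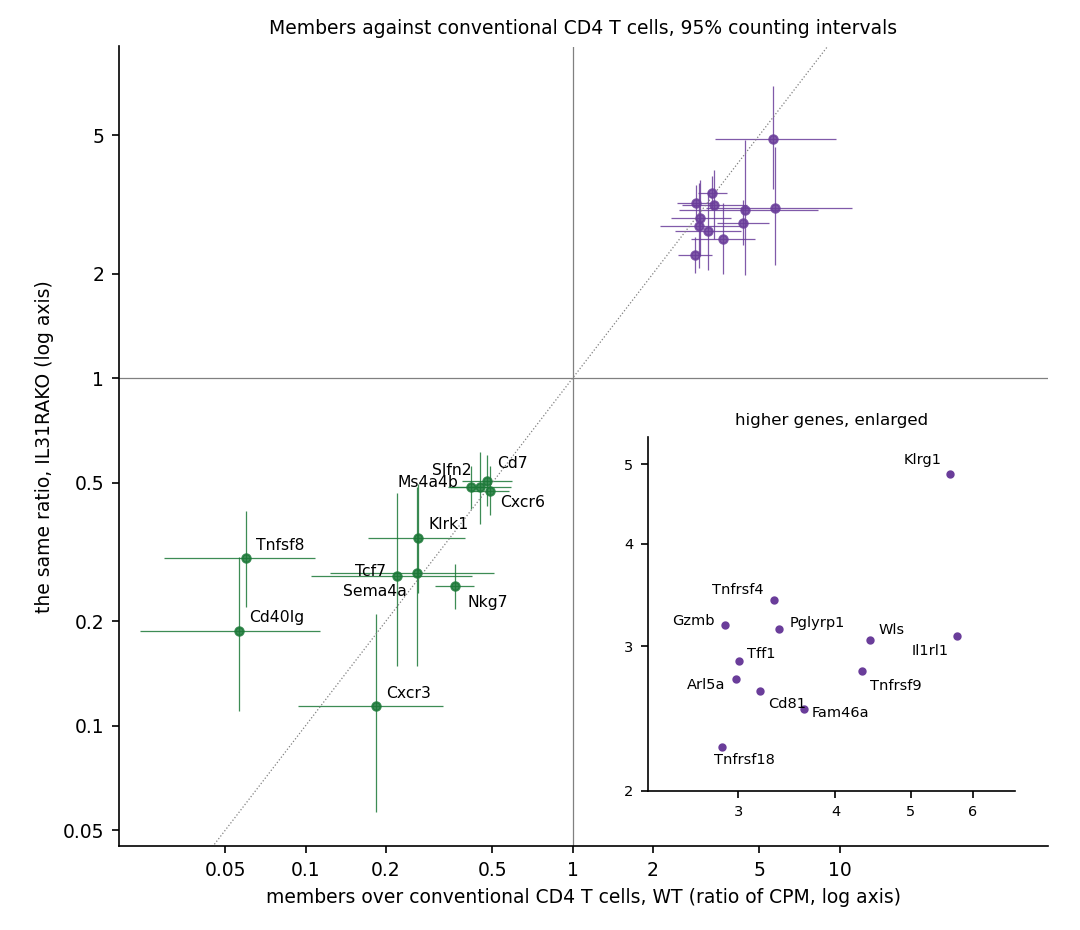
CPM in regulatory T cells over CPM in conventional CD4 T cells in WT (horizontal) and IL31RAKO (vertical) for the 12 higher and 11 of the 12 lower named genes (log axes; bars are 95% counting intervals; the dotted line marks equal ratios; the inset enlarges the higher genes without bars). Cd4 is left out, as it chose the conventional cells. Klrg1 lies at 5.61 and 4.87, and Cd40lg and Tnfsf8 lie above the dotted line.

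Regulatory T cells of the IL31RAKO library were compared with those of the WT library over 3441 genes with 50 or more UMIs in both libraries together. By the same fold of 1.5 with an interval outside 1, 136 genes (3.95%) were higher and 105 (3.05%) lower in IL31RAKO, and the median log2 ratio of all genes was 0.02. Ratios were above 1 for 1812 of the 3441 genes and below 1 for 1629. Gzmb and Klrg1, for granzyme B and KLRG1, had the intervals farthest above 1, and Hspa1a, for a heat shock protein, the one farthest below. Past the fold downward were 4 of 8 heat shock and 6 of 10 proliferation genes, a part of which rested on the single deepest WT cell. With 1 pool of mice per genotype, these are differences between 2 libraries. With 2 or more Foxp3 UMIs asked of each cell, 18 of the 136 higher and 27 of the 105 lower genes still passed, in 51 and 100 cells, and with no Lyz2 UMI 7 and 3 did, in 66 and 65 cells.

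Gzmb (ENSMUSG00000015437, GRCm38 chromosome 14, 56258838 to 56262260, minus strand) had 488 UMIs in 103 WT cells and 1353 in 195 IL31RAKO cells, or 863 and 1698 CPM. The ratio was 1.97 [1.77, 2.19]. After thinning, 40.3% [33.0, 48.0] of WT and 52.3% [46.1, 58.4] of IL31RAKO regulatory T cells had a Gzmb UMI (53.9% and 67.5% before), against 0.166% and 1.26% of C1q macrophages, and the intervals of the members overlapped slightly. Gzmb was higher in IL31RAKO conventional CD4 T cells as well (299 and 533 CPM, 1.78 [1.5, 2.12]). That class can include regulatory T cells whose Foxp3 went undetected, and their part in this ratio was not tested. In C1q macrophages it was at 6.2 and 15.8 CPM (2.55 [1.4, 5.1]), under the 132 and 100 CPM of free RNA. Among cells with 2 or more Foxp3 UMIs the log2 ratio of Gzmb was 0.54, below the fold of 1.5, against 0.98 over all members.

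Klrg1 (ENSMUSG00000030114, GRCm38 chromosome 6, 122270596 to 122282882, minus strand) had 84 UMIs in 47 WT cells and 263 in 120 IL31RAKO cells, or 148 and 330 CPM (2.22 [1.73, 2.88]). After thinning it was seen in 15.3% [10.4, 21.5] of WT and 23.5% [18.5, 29.1] of IL31RAKO cells (24.6% and 41.5% before), and in 0.166% and 0.316% of C1q macrophages, and here too the intervals of the members overlapped. Within the tissue effector list, Il1rl1, with 60 and 139 UMIs (106 and 174 CPM), was at 1.65 [1.21, 2.27] and Dgat1, which makes triglycerides, with 48 and 117 UMIs, at 1.73 [1.23, 2.48]. Gata3, the type 2 transcription factor that also supports tissue regulatory T cells, was at 175 and 246 CPM (1.41 [1.10, 1.81]), Rora at 1.28 [1.07, 1.52] and Areg at 780 and 957 CPM (1.23 [1.09, 1.38]). Batf and Maf were at 1.00 and 0.993. In conventional CD4 T cells Klrg1 was at 2.56 [1.47, 4.61] and Il1rl1 at 3.05 [1.60, 6.14], while Areg was not higher there.

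Of the 12 measured genes of the tissue effector list, 3 were past the fold upward and 1, Penk, downward, with a median log2 ratio of 0.32. Without cycling cells, defined by a UMI of Mki67, Top2a or Birc5, the median was 0.05 over 11 measured genes, and Klrg1 was the 1 gene still past the fold upward (2.11 [1.56, 2.87]). Among cells with 2 or more Foxp3 UMIs, the log2 ratio of Areg turned to -0.10.

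Penk, the precursor of enkephalin opioid peptides, is known from regulatory T cells of skin and other tissues. It had 176 UMIs in 13 WT cells and 84 in 21 IL31RAKO cells, or 311 and 105 CPM (0.339 [0.258, 0.442]). Nearly equal shares of cells carried it, 6.81% of WT and 7.27% of IL31RAKO, or 3.98% and 3.41% after thinning. The 5 cells with the most Penk held 149 of the WT and 56 of the IL31RAKO UMIs, and 1 WT cell held 48. The ratio was 0.448 [0.335, 0.596] without the highest doublet scores. On the log2 scale it was -1.56 over all members, -0.81 with 2 or more Foxp3 UMIs, -0.82 with each cell weighted equally and -2.38 with no Lyz2 UMI.

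Genes of the TNF family and co-stimulation list leaned upward in IL31RAKO. All 10 measured genes had ratios above 1, against 1812 of 3441 over all genes. Of the 10, 9 were above 1 without the deepest WT cell (1804 of 3381 over all genes) and 8 without cycling cells (1459 of 2730). Only Tnfrsf9 passed the fold, and none did without cycling cells. Tnfrsf9 (ENSMUSG00000028965, GRCm38 chromosome 4, 150914562 to 150946102, plus strand) had 343 UMIs in 108 WT cells and 814 in 187 IL31RAKO cells, or 606 and 1022 CPM (1.69 [1.48, 1.92]). After thinning, the shares of cells with a Tnfrsf9 UMI had overlapping intervals, 40.9% [33.6, 48.6] and 44.3% [38.2, 50.5]. Tnfrsf4 was at 1.28 [1.18, 1.39], Tnfrsf18 at 1.30 [1.17, 1.43], Cd27 at 1.28 [1.03, 1.60], Cd28 at 1.19 [1.00, 1.41], Icos at 1.13 [1.01, 1.27] and Tnfaip3, which restrains NF-kappaB signalling, at 1.2 [1.02, 1.41]. When each cell was weighted equally, the log2 ratio of Icos was -0.0031.

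Tnfrsf9 and Tnfrsf18 were also higher in IL31RAKO conventional CD4 T cells, at 2.60 [2.06, 3.31] and 1.64 [1.40, 1.92]. The list's median log2 ratio of 0.25 in regulatory T cells stood beside 0.02 over all genes. The regulatory T genes outside the rule had a median of 0.14, with 10 of 11 above 1 and none past the fold, and without cycling cells 4 of 8 were above 1. Over all genes, 1812 of 3441 were above 1, and 1459 of 2730 without cycling cells. Itgae, the CD103 chain of skin-resident cells, was at 1.06 [0.895, 1.25] and Izumo1r, the folate receptor 4 gene, at 1.09 [0.792, 1.52]. Of the genes that chose the cells, Ctla4 was at 702 and 1046 CPM, Foxp3 at 451 and 560, Ikzf2 at 1121 and 1209 and Il2ra at 318 and 329.

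Suppressive molecules differed in direction. Of 13 measured, 9 had ratios above 1, against 1812 of 3441 over all genes. Gzmb and Pdcd1 were past the fold upward and Lag3 downward. Pdcd1, for the inhibitory receptor PD-1, had 17 and 48 UMIs (2.01 [1.13, 3.72]). Lag3 had 77 UMIs in 40 WT cells and 66 in 36 IL31RAKO cells, or 136 and 82.9 CPM (0.609 [0.431, 0.857]).

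Il10 (ENSMUSG00000016529, GRCm38 chromosome 1, 131019845 to 131024974, plus strand) had 80 UMIs in 36 WT cells and 81 in 37 IL31RAKO cells, or 141 and 102 CPM (0.719 [0.521, 0.992]), with free RNA at 34 and 42.1 CPM. After thinning, 9.66% [5.73, 15] and 6.44% [3.8, 10.1] of cells had an Il10 UMI, with overlapping intervals, and 0.832% and 1.39% of C1q macrophages. Tgfb1 was at 1.23 [0.970, 1.57]. Among TGF-beta genes, Itgav, the integrin chain that activates latent TGF-beta, was the 1 of 9 past the fold, with 69 and 168 UMIs (1.73 [1.30, 2.32]). Among IL-2 and STAT5 genes, Jak3, the kinase bound to the common gamma chain, was the 1 of 11, with 16 and 52 UMIs (2.31 [1.30, 4.33]).

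Homing and recirculation genes had more ratios above 1 than below, with few past the fold. Of homing genes 12 of 14 were above 1, but 7 of 13 without cycling cells. Over all genes these counts were 1812 of 3441 and 1459 of 2730. The CCL2 receptor gene Ccr2 was at 511 and 690 CPM (1.35 [1.17, 1.56]), Il7r at 1.31 [1.11, 1.55] and Klf2, a transcription factor of recirculating T cells, at 1.33 [1.13, 1.57]. Itgav and S1pr4 (1.54 [1.03, 2.33]) were the homing genes past the fold. Of 7 measured recirculation genes, Ccr7, the receptor that leads T cells to lymph nodes, passed it downward with 30 and 21 UMIs (0.497 [0.271, 0.898]). Without the deepest WT cell, which held 4 Ccr7 UMIs, it was at 0.546 [0.292, 1.01].

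Other genes named by the rule for the largest upward differences were Dennd4a (15 and 64 UMIs, 3.03 [1.71, 5.73]), Faap20, for a DNA repair protein of the Fanconi pathway (14 and 53, 2.69 [1.47, 5.25]), the relaxin-3 gene Rln3 (14 and 48, 2.43), the membrane protein gene Serinc3 (1.85 [1.53, 2.24]), Zfp36l2, for an RNA decay factor (1.66), the tetraspanin gene Cd53 (1.49), the lamin A gene Lmna (1.48 [1.33, 1.65]) and Crip1 (5434 and 7797 CPM, 1.43 [1.37, 1.5]). Crip1, Lmna and Cd53 were named for narrow intervals and stand under the fold of 1.5. Crip1, Lmna and Serinc3 were at 1.04, 1.10 and 1.31 in conventional CD4 T cells.

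Among lower genes, Hspa1a, for the inducible heat shock protein HSP70, had 98 UMIs in 38 WT cells and 25 in 18 IL31RAKO cells, or 173 and 31.4 CPM (0.181 [0.112, 0.283]). Its near-identical neighbour Hspa1b shares its sequence, so how reads were split between them is uncertain, and it was lower too (26 and 6 UMIs). Hspa1a was at 0.255 in conventional CD4 T cells and 0.610 [0.561, 0.664] in C1q macrophages, so the lower level was not particular to regulatory T cells. Free RNA held it at 119 and 221 CPM, above the IL31RAKO level in cells. Hspe1 and Hspd1, for the mitochondrial chaperonins HSP10 and HSP60, were at 0.544 [0.435, 0.679] and 0.509 [0.366, 0.707], and Hsp90aa1 at 0.626 [0.529, 0.740].

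Of the 8 measured heat shock genes, 7 had ratios below 1, against 1629 of 3441 over all genes. Past the fold downward were 4, and the median log2 ratio was -0.55. Without the deepest WT cell the median was -0.42 with 3 past the fold, and without cycling cells -0.14 with 1, Hspa1a (0.187 [0.108, 0.311]).

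The deepest WT cell held much of the difference in proliferation genes. Of 10 measured proliferation genes, 8 had ratios below 1, against 1629 of 3441 over all genes. Past the fold downward were 6, and the median log2 ratio was -0.64. Pcna, the sliding clamp of DNA polymerase, had 88 and 59 UMIs (0.476 [0.336, 0.670]), Rrm2, for a subunit of ribonucleotide reductase, 43 and 14 (0.231 [0.117, 0.431]), and Hmgb2 432 and 383 (0.630 [0.547, 0.724]). The deepest WT cell held 20 of the Pcna, 17 of the Rrm2 and 139 of the Hmgb2 UMIs.

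Without that cell the median was -0.25 with 3 genes past the fold. Pcna was then at 0.587 [0.407, 0.844], Rrm2 at 0.364 [0.176, 0.723] with too few UMIs left to be counted, Mcm6 at 0.648 [0.421, 0.996] and Mcm3 at 0.553 [0.320, 0.949], both for subunits of the replicative helicase, while Hmgb2 was at 0.884 [0.757, 1.03] and Stmn1 at 0.840 [0.632, 1.12]. The count of lower genes over all genes went from 105 to 82, and without cycling cells to 65. Cells with a UMI of Mki67, Top2a or Birc5 made up 18.3% [13.1, 24.6] of WT and 19.4% [15, 24.4] of IL31RAKO members, with overlapping intervals. Mki67 was at 0.769 [0.476, 1.25] and Top2a at 1.07 [0.712, 1.63].

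Further lower genes named by the rule were Ran, for the nuclear transport GTPase, which had 329 and 267 UMIs (0.576 [0.489, 0.679]; 60 in the deepest WT cell), Nme2 (0.546), Hmgn1 (0.519), Dut (0.494), Tubb4b (0.527), Smc2, for a condensin subunit (0.391), and Rcc2 (0.355). Ran was at 0.671 [0.565, 0.798] without the deepest WT cell and 1.02 [0.814, 1.28] without cycling cells. Cd72, a B cell co-receptor gene, had 55 and 30 UMIs (0.387 [0.240, 0.615]), with free RNA at 55.2 and 52.6 CPM, and it was at 0.372 in conventional CD4 T cells.

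**Figure D4:**
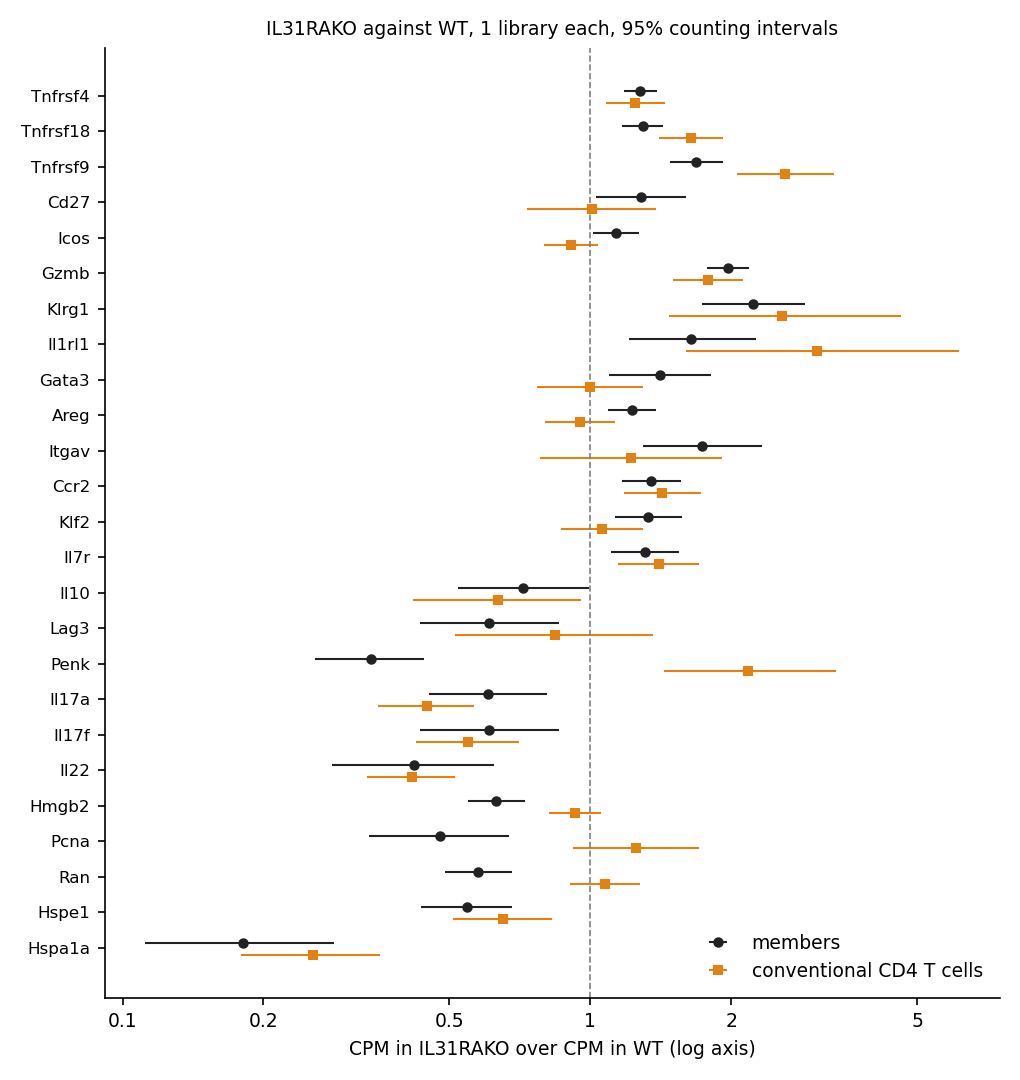
CPM in IL31RAKO over CPM in WT for 25 genes in regulatory T cells (black circles) and conventional CD4 T cells (orange squares), log axis, bars are 95% counting intervals for 1 library each. Gzmb, Klrg1 and Tnfrsf9 lie right of 1 in both classes, Hspa1a lies left of 1 in both, and Penk lies at 0.339 in regulatory T cells and 2.18 in conventional cells.

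**Figure D5:**
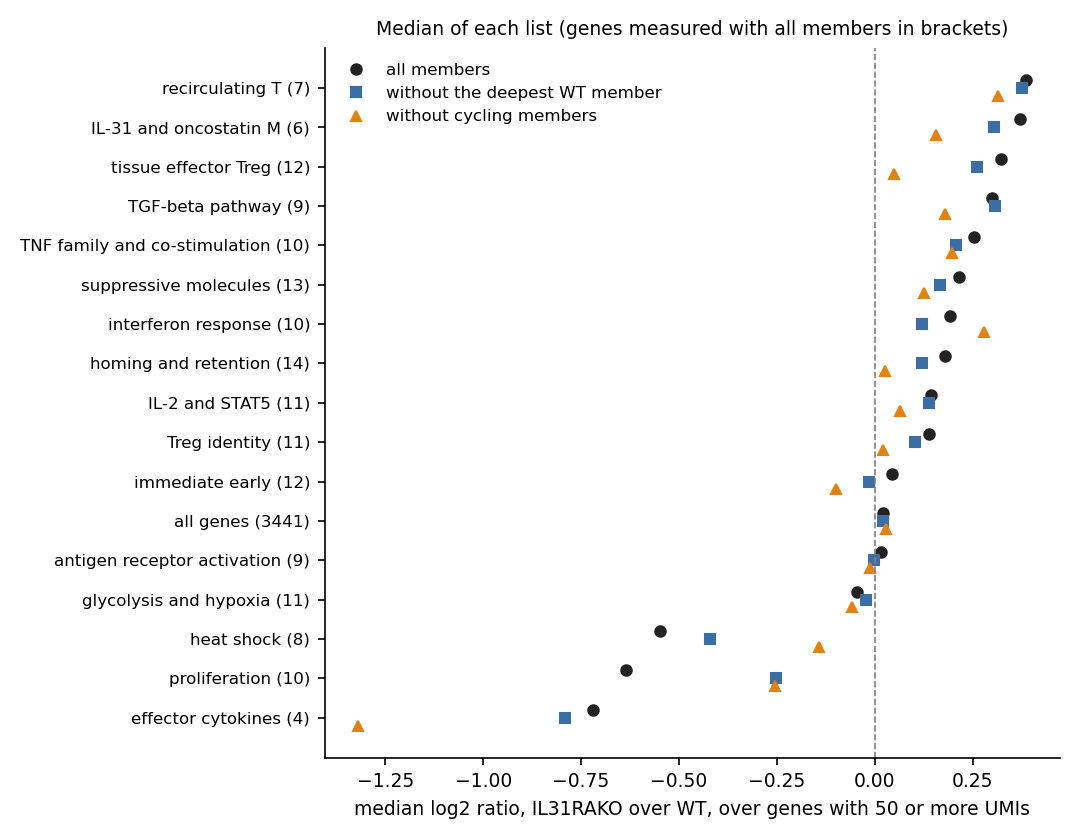
Median log2 ratio, IL31RAKO over WT, in regulatory T cells for each gene list and for all genes, with all cells (circles), without the deepest WT cell (squares) and without cycling cells (triangles); the genes measured are in brackets. Proliferation lies at -0.64 with all cells and -0.25 without the deepest WT cell, and all genes lie near 0.

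Effector cytokine RNA in regulatory T cells was low and lower in IL31RAKO. Il22 had 71 UMIs in 18 WT cells and 42 in 22 IL31RAKO cells (0.420 [0.280, 0.624]), Il17f 77 and 66 (0.609 [0.431, 0.857]) and Il17a 108 and 92 (0.605 [0.453, 0.806]). All 4 measured cytokines were below 1, against 1629 of 3441 over all genes. In both libraries these 3 were less abundant than in free RNA, and conventional CD4 T cells had ratios of 0.416, 0.549 and 0.447. Il22 in free RNA was at 132 and 153 CPM, and in regulatory T cells at 126 and 52.7 CPM. The part of free RNA in these values was not tested.

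The interferon-induced genes Ifitm1, Ifitm2 and Ifitm3 were higher in IL31RAKO, at 1.65 [1.26, 2.19], 1.85 [1.44, 2.41] and 2.89 [1.92, 4.46]. They were the 3 of 10 measured interferon genes past the fold, and each was less abundant than in free RNA in both libraries. They were at 6.16, 2.73 and 3.19 in conventional CD4 T cells. Isg15 was at 1.18 [0.696, 2.05]. Antigen receptor activation genes had a median log2 ratio of 0.01 with none of 9 past the fold: Nr4a1 was at 0.933 [0.752, 1.16] and Cd69 at 1.14 [0.970, 1.35]. Immediate early genes, with 1 of 12 past the fold (Ier3), had a median of 0.04, and glycolysis genes, with 1 of 11 (Hif1a, 1.60 [1.28, 2.01]), of -0.05.

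In the IL-31 and oncostatin M system, no regulatory T cell of either library held a UMI of Il31ra or of the ligand gene Il31. After thinning, 0 of 176 WT and 0 of 264 IL31RAKO cells allow, at 3 counts of the total, a share of cells with an Il31ra UMI of up to 1.70% and 1.14%. Il31ra lies on GRCm38 chromosome 13, 112519898 to 112594360, and since the disrupted part is not given and reads come from the 3' end, its counts check nothing. The shared signalling chain gene Il6st was at 68.9 and 91.6 CPM, 4.01 [2.1, 8.19] and 2.0 [1.26, 3.12] times the conventional level. Osm passed the fold with 13 and 48 UMIs (2.62 [1.4, 5.28]), but 1 IL31RAKO cell held 27 of them and free RNA held 123 and 94.7 CPM. Stat3 was at 1.39 [1.03, 1.89].

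RNA of other cell types was present. The 8 macrophage markers summed to 923 CPM in WT and 1245 in IL31RAKO regulatory T cells, against 11321 and 9227 in free RNA, and none of the 8 stood above free RNA in either library. Lyz2 is 1 of the 8, and the rule held it to at most 5 UMIs per member, which lowers this sum. The 5 neutrophil markers summed to 179 and 545 CPM (1121 and 1353 in free RNA), with 131 of 225 IL31RAKO S100a8 UMIs in 1 cell. The 6 keratinocyte markers summed to 110 and 270 CPM (314 and 437 in free RNA), with 48 of 55 Krt1 and 57 of 67 Krt10 UMIs of IL31RAKO in 1 cell each. The 6 dendritic cell markers summed to 3686 and 2518 CPM (15174 and 15022 in free RNA) and the 6 markers of NK and epidermal T cells to 930 and 861 (3330 and 3090), with 3 of 6 in WT and 2 of 6 in IL31RAKO above free RNA. Fibroblast, endothelial, B cell and mast cell or basophil markers each summed to at most 86.6 CPM. Also above free RNA were 2 of 5 neutrophil markers in WT, and 1 of 6 keratinocyte markers in WT and 2 in IL31RAKO. The same held for 1 of 6 dendritic and 2 of 4 endothelial markers in IL31RAKO and 1 B cell marker in WT. The 2 CD8 markers and 3 gamma-delta markers were at 0 by the rule. The part of this RNA in the differences between the libraries was not tested.

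Members were then split by the genes they carried. The genes given next are those, of up to 139 listed genes with enough UMIs, whose interval lay on the same side of 1 in each library, also without the deepest WT cell. They are a minority in every split (5 higher and 9 lower of 139 for Ikzf2, the 9 including the rule gene Ctla4), and some other genes differed in opposite ways. A UMI of a gene is found more often in deep cells, so median depths are given with each split.

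Members with an Ikzf2 UMI (166 WT and 255 IL31RAKO, median 2263 and 2495 UMIs) were set against those without (25 and 34, median 2377 and 2380). Tnfrsf4 was at 1715 against 875 CPM in WT and 2193 against 1204 in IL31RAKO. Tnfrsf9 was 2.79 [1.61, 5.29] and 1.56 [1.2, 2.07] times as high with Ikzf2, and Tnfrsf18 1.83 and 1.44. Penk had 171 of its 176 WT UMIs and all 84 of its IL31RAKO UMIs in cells with Ikzf2, which were 86.9% and 88.2% of members. Only 13 WT and 21 IL31RAKO cells held Penk, with 149 of the WT UMIs in 5 cells. Maf, a transcription factor of IL-10-producing T cells, was lower with Ikzf2 (0.442 [0.311, 0.642] and 0.619 [0.451, 0.865]), as were Egr1 (0.240 and 0.190), Fos, Fosb, Junb, Btg2 and Cd69. Ctla4 was lower as well, which the rule favours, since cells without Ikzf2 had to hold Ctla4 or Il2ra.

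Members with an Il10 UMI (36 and 37, median 2600.5 and 2696 UMIs, against 2126 and 2399.5) had 11 of 139 genes higher and 1 lower than the rest in both libraries. The 11 include Ctla4. Cxcr6, a chemokine receptor gene, was at 824 against 260 CPM in WT and 603 against 258 in IL31RAKO (3.17 [2.37, 4.22] and 2.34 [1.75, 3.1]). Free RNA held Cxcr6 at 535 and 621 CPM, and its part in this difference was not tested. Lag3 was at 2.95 [1.80, 4.76] and 3.52 [2.05, 5.92], the decoy IL-1 receptor gene Il1r2 at 2.69 and 2.00 and Itgae at 2.07 and 1.64. Areg (1.35 and 2.11), Ccr2 (1.62 and 1.27), Icos (1.63 and 1.24) and Tnfrsf4 (1.36 and 1.31) were higher too. So was Ctla4 (1.62 and 1.45), but the rule used it, so nothing is read from it.

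Areg had a UMI in 96 WT members (50.3% [43.0, 57.6]) and 155 IL31RAKO members (53.6% [47.7, 59.5]), and in 37.5% and 34.5% after thinning (5.66% and 1.52% of C1q macrophages). Members with it (median 2545.5 and 2664 UMIs, against 1997 and 2179.5) had more Nr4a1 (1.57 and 1.87) and Nfkbia (1.41 and 1.34). Il2ra was higher in them too (1.69 [1.22, 2.36] and 1.55 [1.19, 2.03]), but the rule used it, so nothing is read from it. Members with Areg had less Fos (0.394 and 0.682) and Il22 (0.591 and 0.282). Over all members, Il22 lay under its free RNA level in both libraries, and the part of free RNA in this difference was not tested.

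Cycling members (35 and 56, median 3769 and 3237.5 UMIs, against 2114.5 and 2364) had 11.2 [7.01, 18.7] and 9.48 [6.09, 15.2] times the Stmn1 of the rest and more Hmgb2 (4.07 and 2.45), Tubb5 (2.75 and 2.54) and Mcm3 (3.29 and 2.38). Il7r was lower in them (0.498 and 0.733), as were Dusp1 (0.617 and 0.607) and Bhlhe40 (0.336 and 0.581). Ikzf2 was lower too (0.535 and 0.760), but the rule used it, so nothing is read from it. Members with 2 or more Foxp3 UMIs (51 and 100, median 2714 and 2839.5 UMIs, against 2125 and 2326) had more Klrg1 (2.23 [1.42, 3.5] and 1.34 [1.04, 1.72]), Stmn1 (4.19 and 4.03), Tnfrsf18 (1.21 and 1.19), Gapdh (1.49 and 1.19) and Pkm (1.42 and 1.30). Jun (0.303 and 0.654), Junb (0.684 and 0.840) and Ifitm1 (0.182 and 0.309) were lower in them. Over all members, Ifitm1 was less abundant than in free RNA in both libraries.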

How the data were processed

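The authors deposited raw UMI counts per gene and barcode, empty droplets included, from 10x 3' v2 libraries. Cell Ranger 3.1, Seurat 3.2.2 and build mm10 are named in the submitters' processing notes. No cell annotation was used. The cell rule, gene lists and tests were chosen with earlier results of these data known. Counts were summed over the cells of each class and divided by their total. Ratios carry exact conditional binomial 95% counting intervals and shares exact Clopper-Pearson ones, and both cover counting error only. A gene passed the fold at a ratio of 1.5 or more, or its inverse or less, with an interval excluding 1 and 50 or more UMIs. Named genes were the 12 higher and 12 lower genes of each comparison whose interval bound lay farthest from 1. They left out mitochondrial, ribosomal, haemoglobin, antigen receptor and unnamed genes, genes the rule used, genes with over 25% of UMIs in 1 cell, and genes below free RNA. Genes of 16 lists were named too. Gene names came from the files, and 4 of the 7 gamma-delta markers and Ighm were not matched. Scrublet in scanpy 1.11.5 scored doublets, and an alternative left out the top 0.8% per 1000 cells. The ratio code was tested on simulated data. Python 3.11.15, numpy 2.4.6, scipy 1.17.1 and pandas 2.3.3 were used. Coordinates are from GENCODE's GRCm38 annotation. Some results are not reported here.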

Additional observations from a re-analysis of the deposited data

Results flagged for a closer look

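For 6 genes among those listed or named, the ratio of IL31RAKO over WT pointed one way in regulatory T cells and the other way in conventional CD4 T cells, with both intervals on opposite sides of 1. The difference between the classes was not tested, as each class has 1 library per genotype. The share of all genes that did so is not given here, so the count of 6 is not read as a result. Penk was at 0.339 in regulatory T cells and 2.18 in conventional cells, from 13 and 21 regulatory and 12 and 10 conventional cells with a UMI. Tnfsf8 was at 3.68 [1.91, 7.78] and 0.725, from 11 and 57 UMIs in regulatory T cells, 19 of the 57 in 1 cell. Faap20 was at 2.69 and 0.584, Fos at 1.21 and 0.684, and Tnfaip3 at 1.2 and 0.805. Stmn1 was at 0.658 and 1.43, and in regulatory T cells at 0.840 [0.632, 1.12] without the deepest WT cell.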

How the results depend on the processing

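No paired analysis was possible because each group has 1 library. With 2 or more Foxp3 UMIs, the shares had ratios of 1.60 and 1.88, 67 genes were higher and 59 lower in IL31RAKO, and the log2 ratios of Areg and of the interferon list turned to -0.10 and -0.058. With Lyz2 at 0, the shares turned to 0.804 and 0.943, 38 genes were higher and 27 lower in IL31RAKO, and 28 higher and 12 lower than in conventional cells, in fewer cells (66 and 65). With the denominators held to Lyz2 at 0 as well, an alternative chosen after seeing the data, the ratios were 1.63 and 1.92, and with cells thinned before the rule the Cd3 ratio was 1.82. Under 5% mitochondrial UMIs, the interval of the all-cell ratio reached 0.962. The count of lower genes was 65 without cycling cells and 55 without the top cell of each gene. A minimum of 20 UMIs gave 217 higher and 187 lower genes, and one of 200 UMIs gave 22 and 14 (29 and 18 against conventional cells). A fold of 2 gave 39 and 23 (35 and 34). With 2 or more Foxp3 UMIs the log2 ratio of Hspa1a was -1.05 and that of Cd72 -0.30, and with Lyz2 at 0 those of Dennd4a, Tnfrsf9 and Hspe1 were 0.26, 0.36 and -0.17 and that of Il10 -1.55. The log2 ratio of Ran turned to 0.029 without cycling cells. Ccl3 and Ccl4, higher in IL31RAKO with 215 of 244 and 130 of 203 IL31RAKO UMIs in 1 cell, turned to -0.97 and -1.97 at Lyz2 0 and to -0.57 and -0.47 without cycling cells, and Ccl3 to -0.49 without its top cell. Icos was at -0.0031 with cells weighted equally, also chosen after seeing the data, as were leaving out the deepest WT cell and the Cd8 criterion. Of 70 values of the shares and of the counts of genes past the fold, 45 kept their direction and size, 23 moved and 2 reversed. Of 549 values of single genes, 484 kept their direction and size, 57 moved and 8 reversed, and of 175 list medians 147, 27 and 1. Genes under 50 UMIs were too shallow to compare.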

Other observations

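Gzma, for granzyme A, had 13 UMIs in 2 WT regulatory T cells and 170 in 8 IL31RAKO cells, with 99 in 1 cell, and was left out of the named genes by the limit on single cells. Regulatory T cells had more Bnip3, a mitophagy gene, than conventional CD4 T cells in both libraries (2.21 [1.28, 3.88] and 2.23 [1.21, 4.32]). Their chemokine receptor gene Ccr10, for skin homing, was at 1.34 [0.892, 2.00] in WT and 2.40 [1.48, 4.03] in IL31RAKO, and Ccr2 at 1.86 [1.55, 2.23] and 1.76 [1.51, 2.05].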
